A study of Mus musculus with 82 samples.

Results

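The genes that make cholesterol, together with the SREBP2 system that controls them, were followed in mouse sciatic nerve. They were matched by symbol, ignoring case, to a list of 26 genes. The list holds 8 genes of the mevalonate arm, 12 of the sterol arm and 6 of control, transport and acetoacetate use. Of 78308 gene symbols in any of the 8 count tables these are 26, of which 25 were in every table and *Erg28*, a scaffold of the sterol demethylation enzymes, was in 3.

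Cholesterol synthesis starts with acetyl-CoA, which the mevalonate arm turns into isoprenoid units and farnesyl diphosphate. The sterol arm joins these into squalene, closes the rings to lanosterol and trims lanosterol to cholesterol. SREBP2, the product of *Srebf2*, is a membrane-bound transcription factor. When sterols are plentiful, its escort SCAP is held in the endoplasmic reticulum by the INSIG proteins, and when sterols are scarce SREBP2 is cut in the Golgi and switches on the genes of both arms. Myelin is rich in cholesterol, and in mouse a Schwann cell without SCAP makes too little myelin.

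The series holds 82 libraries of bulk RNA in 22 groups, made with poly(A) selection from frozen sciatic nerve of mice, and its title concerns the transcription factor Mitf in Schwann cells and nerve repair. Fig4, a phosphoinositide phosphatase, was compared as Fig4 -/- with Fig4 +/+ at P12 and at P4, with 3 libraries in each group. Libraries labelled Mitf were compared at P21 with libraries labelled DhhCre, 5 each, and at P12 with libraries labelled Egr2Cre, 3 each. DhhCre and Egr2Cre are named for Cre recombinase driven from *Dhh* and *Egr2*, genes that are active in the Schwann cell lineage. Egr2Cre Mitf and Mitf libraries, 3 each, carry no age or injury label. Libraries labelled Mitf, taken 3 days post injury, were compared with uninjured ones, 4 each. Mutant and wild type libraries were taken 3, 7 and 14 days post injury, 3 for each genotype and time. The last table holds 5 Ndrg1, 5 Mitf-Ndrg1, 6 Mitf and 6 control libraries with no age or injury label, and loss of Ndrg1, which myelinating Schwann cells express, leads to loss of myelin in hereditary neuropathy. The labels do not say which *Mitf* allele the Mitf groups carry, which gene is altered in the Mutant, or whether a group named Mitf beside a Cre-labelled group is the mutant or its control, so the direction of those comparisons follows the label names alone. They also do not say whether the libraries of a group are separate animals, so the p-values measure the spread between these libraries, which may be technical.

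The promoters of several members are given because the genes differ in how they moved: *Hmgcs1*, *Lss* and *Insig1* fell in the 4 comparisons that called most members, while *Insig2* fell in 1 of them and *Ggps1* in 0. The windows lie before the RefSeq start on build GRCm38.p6 and are written 5′ to 3′ on the gene's strand. Capitals mark CCAAT on either strand (CCAAT or ATTGG, the box of the factor NF-Y) and, in *Hmgcs1* alone, the SREBP motif TCACCCCAC at position -137 from the start. The windows are chr13:119690101-119690350, plus strand, for *Hmgcs1*; chr10:76531355-76531587, plus strand, for *Lss*; chr5:28071162-28071362, plus strand, for *Insig1*; chr1:121332590-121332839, minus strand, for *Insig2*; and chr13:14063489-14063738, minus strand, for *Ggps1*.
Hmgcs1: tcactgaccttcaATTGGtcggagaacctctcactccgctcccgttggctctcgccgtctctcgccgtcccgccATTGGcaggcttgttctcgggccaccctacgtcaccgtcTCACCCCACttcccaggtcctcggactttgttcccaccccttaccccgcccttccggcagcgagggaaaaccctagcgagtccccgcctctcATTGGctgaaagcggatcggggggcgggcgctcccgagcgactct
Lss: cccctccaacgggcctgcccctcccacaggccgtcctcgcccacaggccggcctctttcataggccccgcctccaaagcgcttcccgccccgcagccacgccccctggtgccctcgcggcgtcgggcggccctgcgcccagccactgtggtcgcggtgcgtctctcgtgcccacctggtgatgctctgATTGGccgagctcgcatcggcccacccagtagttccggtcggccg
Insig1: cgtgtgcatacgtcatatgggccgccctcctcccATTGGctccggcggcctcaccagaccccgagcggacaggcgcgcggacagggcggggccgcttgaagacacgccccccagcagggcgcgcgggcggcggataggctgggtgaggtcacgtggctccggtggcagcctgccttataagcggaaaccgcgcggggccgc
Insig2: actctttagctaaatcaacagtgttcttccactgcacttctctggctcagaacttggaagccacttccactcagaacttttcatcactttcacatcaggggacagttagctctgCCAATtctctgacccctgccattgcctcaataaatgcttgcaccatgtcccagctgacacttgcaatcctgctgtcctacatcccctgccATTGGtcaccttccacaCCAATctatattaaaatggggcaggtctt
Ggps1: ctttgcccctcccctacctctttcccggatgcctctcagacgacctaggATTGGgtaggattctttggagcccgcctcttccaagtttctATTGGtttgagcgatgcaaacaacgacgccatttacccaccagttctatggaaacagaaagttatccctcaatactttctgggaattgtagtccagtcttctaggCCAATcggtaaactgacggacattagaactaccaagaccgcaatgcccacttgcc
Windows of 250 bases before the start were searched on both strands for 22 of the 26 members. No window was used for *Fdps*, *Fdft1*, *Sqle* and *Stard4*. The SREBP motif TCACNCCAC was found in 1 of the 22, or 4.55%, against 1.22% of 27025 genes. CCAAT was found in 18, or 81.8%, against 37.5% of all genes, and GGGCGG, the box of Sp1, in 19, or 86.4%, against 35.4%. The E-box CACGTG was found in 5, or 22.7%, against 6.86%. Matches of different motifs could overlap, and a match is a description of these letters only. The *Ggps1* window and the *Insig2* window printed above held no GGGCGG, and 2 further *Insig2* windows held 1 each. No window of *Pmvk* or *Aacs* held GGGCGG either, and both genes were called lower in 3 of the 4 comparisons. CCAAT matched 3 times each in the *Hmgcs1*, *Ggps1* and printed *Insig2* windows, and 1 time each in those of *Lss* and *Insig1*. Whether any motif bears on the changes was not tested.

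The deposited estimated counts summed to between 15438812 and 34531452 per library. Levels are in CPM, the count as a share of the TMM-scaled library size, set within each table. A gene is called where its Benjamini-Hochberg adjusted p in edgeR's quasi-likelihood test is under 0.05, and the log2 change is that of the first-named group over the second. *Fig4* averaged 4.43 ± 1.42 CPM in Fig4 -/- and 22.7 ± 4.06 CPM in Fig4 +/+ libraries at P12 (SD, n = 3 each), and the Ndrg1 libraries had 181 ± 11.4 CPM of *Ndrg1* and the Mitf-Ndrg1 libraries 177 ± 12.3 CPM (n = 5 each), while the Mitf libraries had 1773 ± 195 CPM and the control libraries 1965 ± 95.5 CPM (SD, n = 6 each). *Mitf* RNA was higher in the libraries labelled Mitf than in those labelled DhhCre at P21, at 19.7 ± 1.69 CPM in Mitf and 5.74 ± 1.05 CPM in DhhCre (SD, n = 5 each; log2 change 1.77, adjusted p = 2.95e-05). It was not called in Mitf against Egr2Cre at P12, in Egr2Cre Mitf against Mitf or in Mitf against control. At P12 it ran from 6.75 to 9.57 CPM in Egr2Cre and 13.7 to 14.5 CPM in Mitf libraries (log2 change 0.73, SE 0.151). It ran from 7.02 to 9.91 CPM in Egr2Cre Mitf and 10.1 to 11.8 CPM in the Mitf libraries beside them (-0.45, SE 0.172). In both, as at P21, *Mitf* RNA was lower in the Cre-labelled group, and the groups did not overlap. In Mitf against control it averaged 12.2 ± 1.66 CPM in Mitf and 17.995 ± 2.19 CPM in control libraries (SD, n = 6 each). The log2 change there was -0.55 (adjusted p = 0.236). Some libraries stood apart. At P4, Fig4 -/- replicate 3 and Fig4 +/+ replicate 1 held summed skeletal muscle markers of 10704 and 13222 CPM, with the 25 members that every table holds summing to 5105 and 3900 CPM, against 7159 to 7731 CPM in the other 4 libraries. In the time course, the summed Schwann cell markers lay between 558 and 2422 CPM except in Mutant 7 days post injury replicate 1, at 7525 CPM, and the skeletal muscle markers reached 158000 CPM. In the Ndrg1 table, Mitf replicate 2 held muscle markers of 36871 CPM and the lowest member sum of its group, 8359 CPM.

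**Figure D1:**
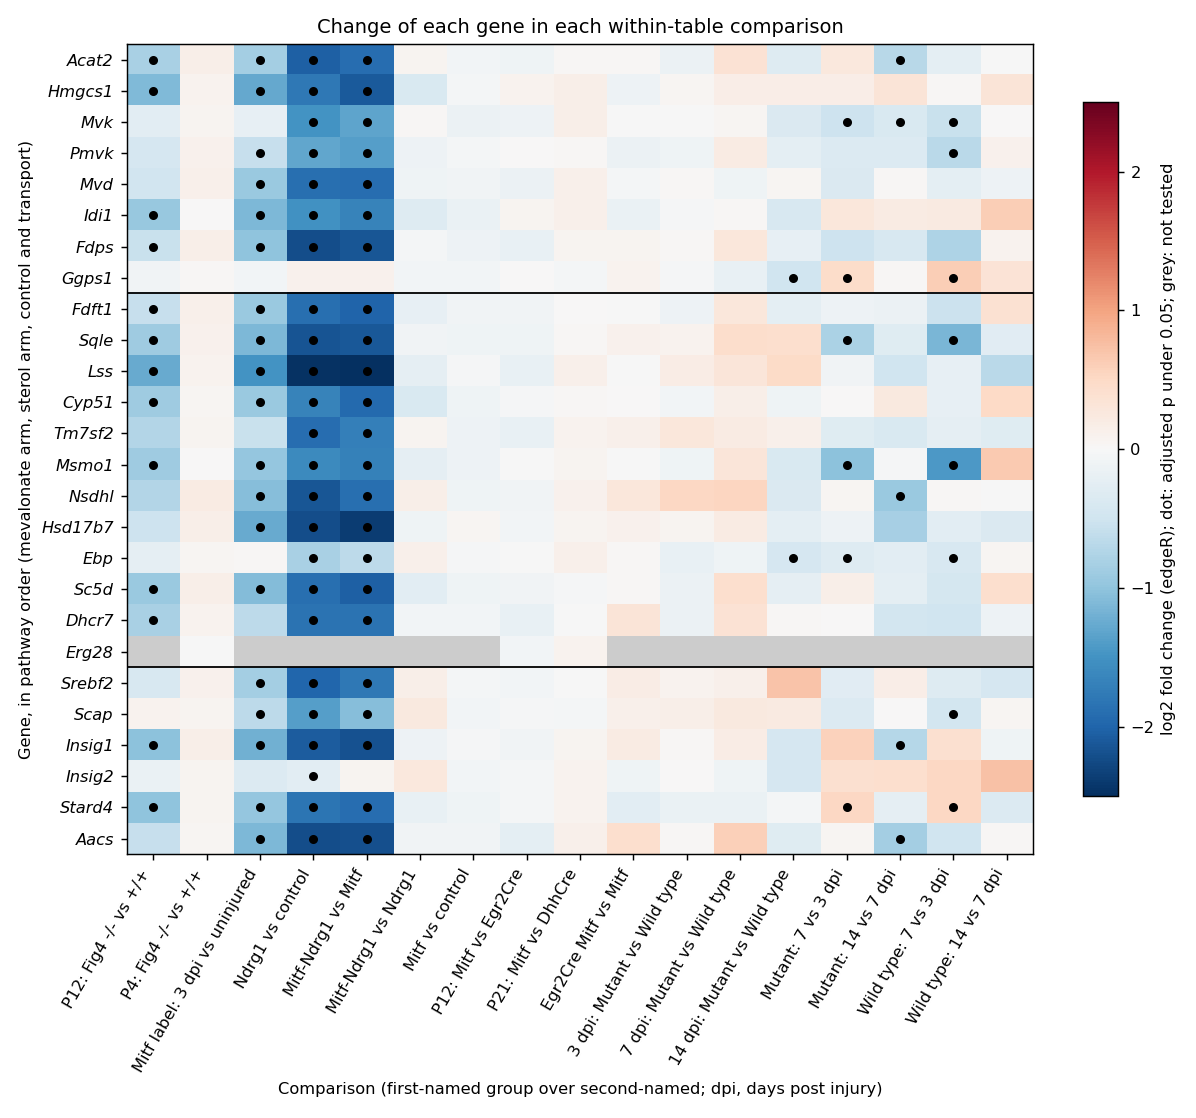
Colour gives the log2 fold change (edgeR) of each gene, in pathway order down the page, in each of the 17 comparisons of groups across it; a dot marks an adjusted p under 0.05 and grey a gene not in the table. The filled blue columns with dots are Fig4 -/- at P12 (13 dots), 3 days post injury (19), Ndrg1 (24) and Mitf-Ndrg1 (23).

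In Fig4 -/- nerves at P12 genes of both arms of cholesterol synthesis were lower. edgeR called 13 of 25 members lower and 0 higher, where 1.16% of the 14338 genes tested were lower and 1.87% higher (3.03% in either direction). The median log2 change of the members was -0.73, against 6.22e-05 over all genes tested. In bulk RNA, fewer cells of a type and less RNA per cell cannot be told apart. For 19 members every Fig4 -/- library was below every Fig4 +/+ library, which held for 11.8% of all genes.

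In the mevalonate arm 4 of 8 members fell at P12. *Hmgcs1*, the cytosolic HMG-CoA synthase near the start of the arm, stood at 2246, 1857 and 2687 CPM in Fig4 -/- and at 5508, 5013 and 4120 CPM in Fig4 +/+ libraries. The groups were well apart, and the log2 change was -1.11 (SE 0.17, adjusted p = 0.00477). *Acat2* (thiolase, -0.80), *Idi1* (isopentenyl isomerase, -0.95) and *Fdps* (farnesyl diphosphate synthase, -0.56) also fell on the log2 scale. *Acat2* has a near-identical neighbour, *Acat3*, so its counts are uncertain here and throughout. The kinases *Mvk* and *Pmvk* and the decarboxylase *Mvd* were not called, with log2 changes of -0.26, -0.42 and -0.48. *Ggps1*, which leads to geranylgeranyl diphosphate and so away from sterols, had 62.6, 45.0 and 35.8 CPM in Fig4 -/- and 56.1, 45.2 and 50.9 CPM in Fig4 +/+ libraries. Its groups overlapped, with a log2 change of -0.09 (SE 0.196, adjusted p = 0.876).

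In the sterol arm 7 of 11 members fell at P12. *Lss*, lanosterol synthase, which closes the sterol rings, had 146, 129 and 197 CPM in Fig4 -/- and 419, 405 and 313 CPM in Fig4 +/+ libraries. This was the largest fall among the members in this comparison, a log2 change of -1.27 (SE 0.171, adjusted p = 0.00209). *Sc5d*, the sterol desaturase late in the arm, had 238, 269 and 319 CPM in Fig4 -/- and 588, 506 and 472 CPM in Fig4 +/+ libraries (log2 change -0.92, SE 0.139, adjusted p = 0.00447). *Msmo1*, the methyl sterol oxidase, had 989.7, 749 and 1010 CPM in Fig4 -/- and 1836, 1733 and 1512 CPM in Fig4 +/+ libraries (-0.89, SE 0.147, adjusted p = 0.00815). *Cyp51*, the lanosterol demethylase, had 754, 611 and 855 CPM in Fig4 -/- and 1552, 1430 and 1146 CPM in Fig4 +/+ libraries (-0.89, SE 0.158, adjusted p = 0.0112). None of these 4 genes overlapped between groups, and for each of them Fig4 -/- replicate 3 was the highest of its group. *Fdft1* (squalene synthase), *Sqle* (squalene epoxidase) and *Dhcr7* (the last reductase) fell by 0.57, 0.89 and 0.80. Just outside the threshold were *Nsdhl*, a demethylation enzyme, at -0.73 (adjusted p = 0.053) and *Hsd17b7*, its partner reductase, at -0.52 (adjusted p = 0.103).

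Among the control genes, *Insig1*, which holds SCAP back and is itself a target of SREBP2, had 191, 177 and 279.6 CPM in Fig4 -/- and 529, 461 and 336 CPM in Fig4 +/+ libraries at P12 (log2 change -1.03, SE 0.204, adjusted p = 0.0244). *Stard4*, a soluble carrier of cholesterol, had 61.2, 77.2 and 104 CPM in Fig4 -/- and 175, 159 and 156 CPM in Fig4 +/+ libraries (-1.01, SE 0.172, adjusted p = 0.00949). Both were lower in every Fig4 -/- library. *Srebf2* itself had 69.7, 65.3 and 60.2 CPM in Fig4 -/- and 83.2, 95.8 and 80.3 CPM in Fig4 +/+ libraries; the groups did not overlap, but the log2 change of -0.41 was not called (SE 0.131, adjusted p = 0.124). *Scap* had 33.0, 39.3 and 21.6 CPM in Fig4 -/- and 30.6, 29.8 and 28.1 CPM in Fig4 +/+ libraries (0.09, SE 0.207, adjusted p = 0.884). *Insig2*, the other INSIG, had 38.9, 29.8 and 31.5 CPM in Fig4 -/- and 39.5, 38.0 and 34.8 CPM in Fig4 +/+ libraries (-0.16, SE 0.16, adjusted p = 0.661). Both *Scap* and *Insig2* overlapped between groups. *Aacs*, which makes acetoacetyl-CoA from ketone bodies, was at -0.58 (adjusted p = 0.0543).

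Other lipid genes were set beside these at P12. None of 8 other genes of SREBP cleavage and INSIG turnover was called (0 higher, 0 lower, median -0.15), the nearest being *Rnf139*, an INSIG-linked ubiquitin ligase, at -0.54 (adjusted p = 0.0675). Of 11 genes of fatty acid synthesis 8 fell and 0 rose, among them *Acly* (-0.81), *Scd1* (-1.06) and *Acss2* (-1.25). Of 10 genes of cholesterol export, esterification and LXR, the oxysterol receptor, 3 rose and 0 fell: the exporter *Abca1* (2.41), the ester hydrolase *Nceh1* (1.10) and *Mylip* (0.70), a ligase that degrades lipoprotein receptors. None of 10 other genes of the isoprenoid branch was called. Markers of other cells moved too: 9 of 12 macrophage markers rose, with sums of 924 to 1234 CPM in Fig4 -/- and 507 to 616 CPM in Fig4 +/+ libraries, and 4 of 15 myelin genes fell. The summed Schwann cell markers were 39031 to 50029 CPM in Fig4 -/- and 52413 to 75505 CPM in Fig4 +/+ libraries. Their part in the result was not tested. With the muscle marker sum as a covariate, which lay at 10.2 to 12.7 CPM in Fig4 -/- and 15.3 to 121 CPM in Fig4 +/+ libraries, 1 member was called lower (median -0.56). These sums did not overlap between genotypes, so this fit cannot fully tell the covariate from genotype. Without Fig4 -/- replicate 2 the count was 4, and without Fig4 +/+ replicate 1 or 2 it was 6.

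At P4 the same genotypes gave no called member. edgeR called 0 of 26, with 0 at an unadjusted p under 0.05 and 0 called by DESeq2, where 0.00672% of 14888 genes were called. The median of the members was 0.08, against -0.00339 over all genes. *Pmvk*, phosphomevalonate kinase, had the smallest p, with 76.2, 73.6 and 81.1 CPM in Fig4 -/- and 60.6, 72.8 and 81.2 CPM in Fig4 +/+ libraries (log2 change 0.11, SE 0.141, adjusted p = 1.00). *Nsdhl* had 234, 228 and 144 CPM in Fig4 -/- and 102, 212 and 210 CPM in Fig4 +/+ libraries (0.21, SE 0.345). *Hmgcs1* had 1849, 2020 and 1093 CPM in Fig4 -/- and 815, 2077 and 1800 CPM in Fig4 +/+ libraries. In *Nsdhl* and *Hmgcs1* the low library of each group was the one with the high muscle sum. Without both of these libraries 0 members were called and the median was -0.00357.

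The difference between the ages was tested as an interaction over the genes that both tables share. The median of the 25 members was -0.80, P12 minus P4, and 24 of the 25 were negative. No member was called (0 of 25, with 11 at an unadjusted p under 0.05 and 3 called by DESeq2), where 0.167% of all genes were called. *Sc5d* had the smallest p, at -1.05 (SE 0.300, adjusted p = 0.36), followed by *Msmo1* at -0.90 (SE 0.263, adjusted p = 0.371). Each age is a table of its own, so age and table cannot be told apart.

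**Figure D2:**
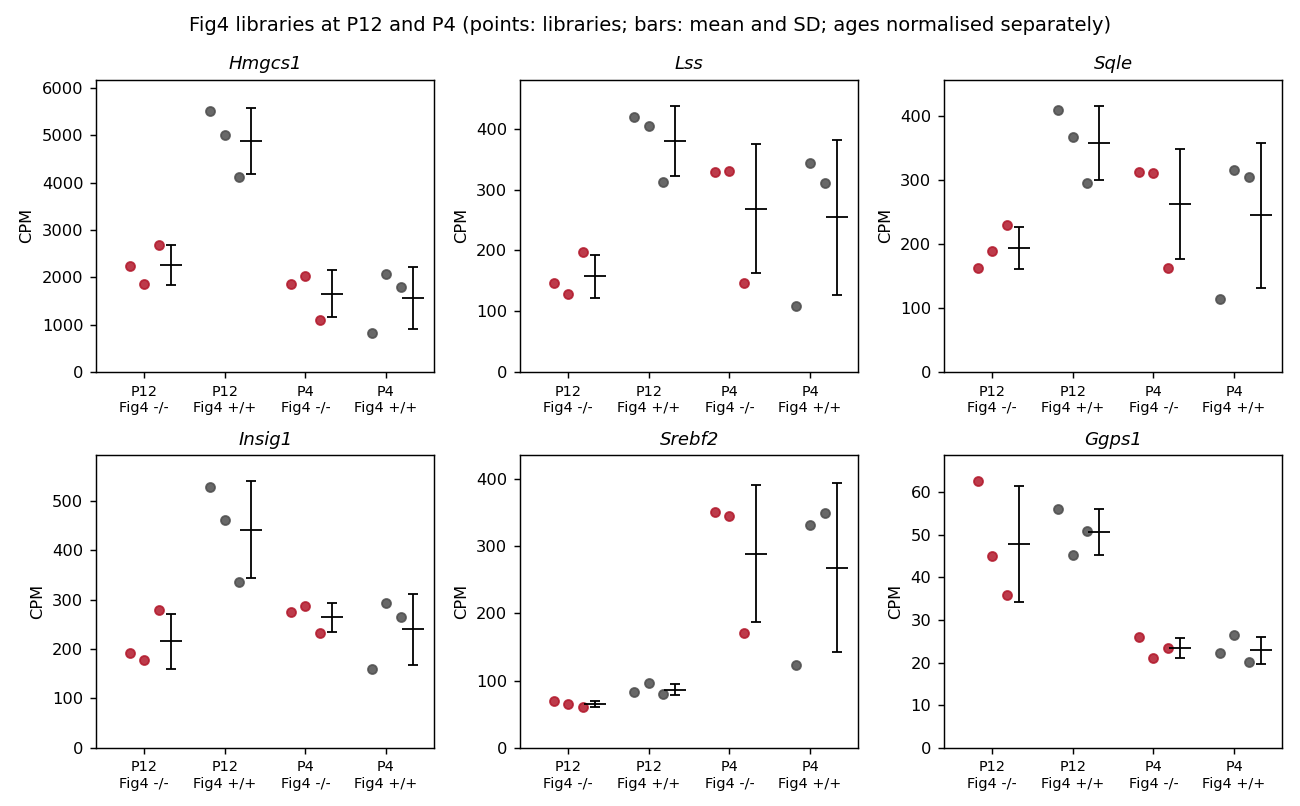
CPM of 6 members in each Fig4 library at P12 and P4 (points; bars give the mean and SD, n = 3), from tables normalised separately. At P12 the Fig4 -/- points of *Hmgcs1*, *Lss*, *Sqle* and *Insig1* lie below all Fig4 +/+ points, while those of *Ggps1* overlap; at P4 the groups overlap in all 6.

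Most genes of the pathway were lower after injury. In libraries labelled Mitf, edgeR called 19 of 25 members lower and 0 higher 3 days post injury against uninjured, where 10.4% of 15245 genes were lower and 11.7% higher (22.1% in either direction). The median of the members was -0.93, against 0.035 over all genes. All injured libraries lay below all uninjured ones for 18 members, which held for 13.9% of all genes. The calls took in 6 of 8 members of the mevalonate arm, 8 of 11 of the sterol arm and 5 of 6 of the control group.

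*Lss* again had the largest fall of the members, with 62.1, 46.3, 68.7 and 65.4 CPM 3 days post injury and 173, 178, 187 and 149 CPM in uninjured libraries (log2 change -1.50, SE 0.146, adjusted p = 0.00103). *Hsd17b7*, the keto-steroid reductase of the demethylation complex, had 41.3, 35.5, 69.5 and 54.0 CPM 3 days post injury and 132, 122, 121 and 107 CPM in uninjured libraries (-1.27, SE 0.196, adjusted p = 0.00351). *Hmgcs1* had 679.6, 536, 866 and 713 CPM 3 days post injury and 1763, 1932, 1750 and 1368 CPM in uninjured libraries (-1.29, SE 0.191, adjusted p = 0.00314). For each of these 3 genes all injured libraries lay below all uninjured ones. *Idi1* had 152, 118, 176 and 157 CPM 3 days post injury and 376, 348, 328 and 267 CPM in uninjured libraries (-1.13, SE 0.162, adjusted p = 0.00288). *Aacs* had 65.9, 63.5, 78.1 and 64.0 CPM 3 days post injury and 156, 148, 161 and 124 CPM in uninjured libraries (-1.12, SE 0.126, adjusted p = 0.00173). *Stard4* had 38.0, 47.8, 53.5 and 47.1 CPM 3 days post injury and 99.5, 96.8, 89.1 and 80.7 CPM in uninjured libraries (-0.97, SE 0.131, adjusted p = 0.00231). These 3 genes did not overlap between groups either. The members that were not called were *Mvk* (-0.21), *Ggps1* (-0.06), *Tm7sf2*, a sterol reductase (-0.56), *Ebp*, the sterol isomerase (0.02), *Dhcr7* (-0.66) and *Insig2*.

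The control genes moved with the enzymes after injury. *Srebf2* had 207, 135, 247 and 199.9 CPM 3 days post injury and 342, 379.5, 358 and 335 CPM in uninjured libraries (log2 change -0.84, SE 0.177, adjusted p = 0.0102). *Scap* had 76.6, 58.0, 99.7 and 80.9 CPM 3 days post injury and 119, 134, 124 and 118 CPM in uninjured libraries (-0.65, SE 0.157, adjusted p = 0.0167). *Insig1* had 127, 67.0, 133 and 109 CPM 3 days post injury and 287, 250.3, 234 and 230.2 CPM in uninjured libraries (-1.20, SE 0.203, adjusted p = 0.00455). In all 3 the injured libraries were lower and replicate 2 was the lowest of them. *Insig2* had 23.1, 25.9, 23.3 and 24.0 CPM 3 days post injury and 31.2, 30.4, 29.4 and 30.9 CPM in uninjured libraries; the groups were apart, but the change of -0.34 was not called (SE 0.112, adjusted p = 0.0538).

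Of the 8 other genes of SREBP cleavage and INSIG turnover 3 fell after injury, namely the protease *Mbtps1* (-0.77), the sterol-binding *Pgrmc1* (-0.60) and the ligase *Rnf145* (-0.52). Of 11 fatty acid genes 7 fell, with the smallest p for *Acaca* (-1.13), *Fasn* (-1.08) and *Acly* (-1.03) and the largest fall for *Elovl6* (-1.40). In the export and LXR list 3 of 11 rose, the esterifying enzyme *Soat1* (1.52), *Abca1* (1.87) and *Nceh1* (0.89), and 2 fell, among them the exporter *Abcg1* (-0.75). In the isoprenoid branch *Rabggtb*, a subunit of the enzyme that prenylates Rab proteins, rose by 0.51 and *Fnta*, a prenyltransferase subunit, fell by 0.40, of 10 tested, which is near the shares over all genes of 11.7% higher and 10.4% lower. Of 15 myelin genes 9 fell and of 12 macrophage markers 3 rose. The summed Schwann cell markers were 15646 to 42310 CPM 3 days post injury and 42748 to 50228 CPM in uninjured libraries, and the macrophage sums were 1017 to 2706 CPM 3 days post injury and 556 to 1348 CPM in uninjured libraries. The part of cell composition in the result was not tested.

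**Figure D3:**
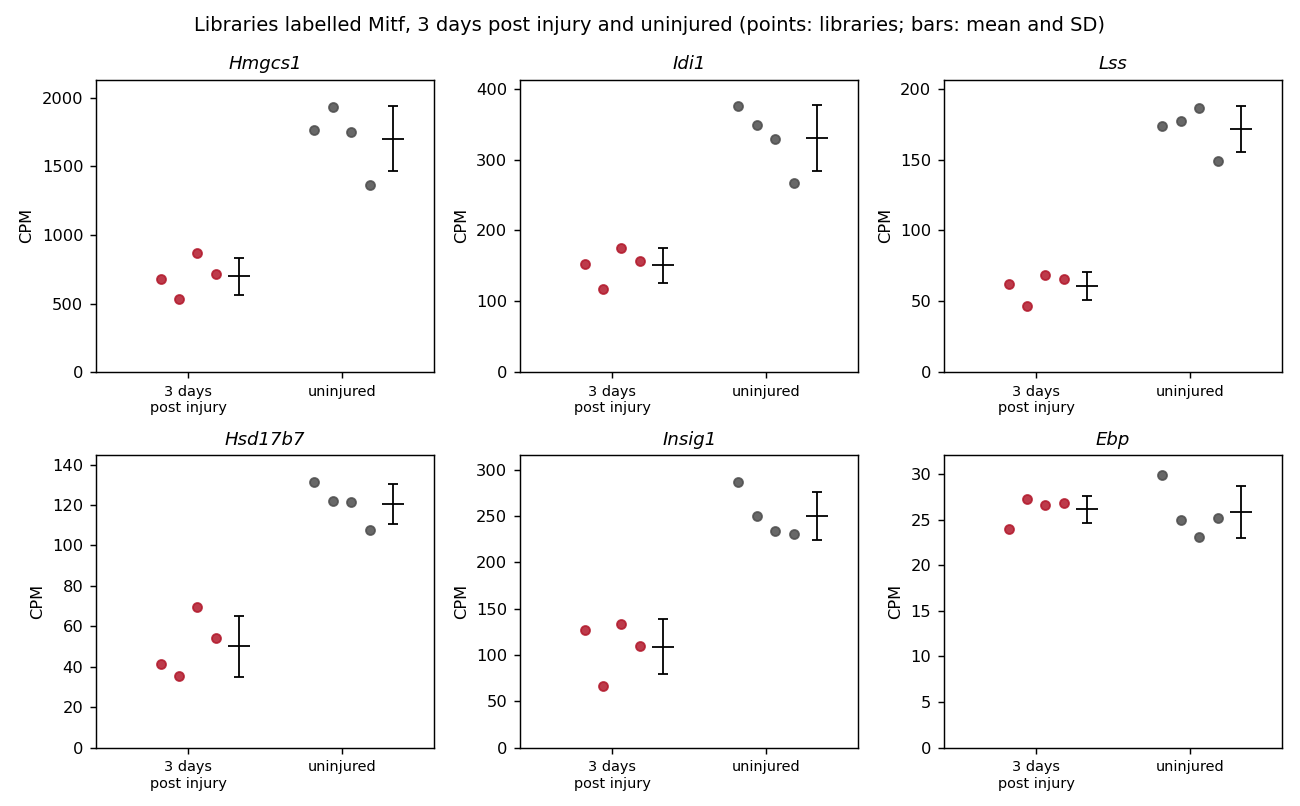
CPM of 6 members in each library labelled Mitf, 3 days post injury and uninjured (points; bars give the mean and SD, n = 4). Injured points lie below all uninjured points for *Hmgcs1*, *Idi1*, *Lss*, *Hsd17b7* and *Insig1*, and the groups overlap for *Ebp*, at 26.2 ± 1.48 CPM injured and 25.8 ± 2.87 CPM uninjured.

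Nearly all of the pathway's genes were lower in Ndrg1 nerves. Against control, edgeR called 24 of 25 members lower and 0 higher in Ndrg1 libraries, where 29.7% of 15910 genes were lower and 30.8% higher (60.5% in either direction). The median of the members was -1.88, against 0.020 over all genes, and 22 members had a log2 change below -1 and 8 below -2. The members summed to 3041 ± 371 CPM in Ndrg1 (SD, n = 5) and 10575 ± 687 CPM in control libraries (SD, n = 6). For 23 members no Ndrg1 library reached any control library, which held for 21.2% of all genes in that direction. The medians by role were -1.64 for the mevalonate arm, -1.88 for the sterol arm and -1.91 for the control genes.

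*Acat2* had 53.0, 42.7, 39.3, 44.7 and 41.9 CPM in Ndrg1 libraries, and control libraries ran from 168 to 200.2 with a median of 181 CPM (log2 change -2.03, SE 0.0979, adjusted p = 1.81e-14). *Fdft1*, the first enzyme given over to sterols, had 120, 109, 106, 108 and 115 CPM in Ndrg1 libraries, and control libraries ran from 364 to 441 with a median of 419 CPM (-1.88, SE 0.0938, adjusted p = 3.17e-14). *Msmo1* had 232, 215, 261, 212 and 185 CPM in Ndrg1 libraries, and control libraries ran from 615 to 697 with a median of 668 CPM (-1.59, SE 0.0879, adjusted p = 2.04e-13). In these genes the Ndrg1 libraries were all far below the control range. *Pmvk* had 59.0, 46.8, 46.8, 56.4 and 55.0 CPM in Ndrg1 libraries, and control libraries ran from 121 to 135 with a median of 133 CPM (-1.30, SE 0.0762, adjusted p = 6.24e-13). *Mvd* had 47.9, 40.6, 27.7, 43.0 and 46.3 CPM in Ndrg1 libraries, and control libraries ran from 142 to 162 with a median of 149 CPM (-1.88, SE 0.112, adjusted p = 8.92e-13). *Lss* had 88.9, 58.4, 62.8, 67.8 and 60.6 CPM in Ndrg1 libraries, and control libraries ran from 323 to 439 with a median of 375 CPM. *Lss* fell by 2.47 (SE 0.173, adjusted p = 2.21e-11), the largest fall of the members in this comparison, while *Pmvk* fell by less than most of the sterol arm. The smallest called falls of enzymes included *Ebp* at -0.81.

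*Srebf2* had 108, 83.5, 69.7, 90.1 and 100.4 CPM in Ndrg1 libraries, and control libraries ran from 299 to 397 with a median of 380.2 CPM (log2 change -1.99, SE 0.147, adjusted p = 3.58e-11). *Scap* had 58.0, 50.5, 34.4, 61.0 and 52.5 CPM in Ndrg1 libraries, and control libraries ran from 113 to 153 with a median of 134 CPM (-1.37, SE 0.128, adjusted p = 2.03e-09). *Insig1* had 113, 87.4, 93.1, 90.2 and 76.8 CPM in Ndrg1 libraries, and control libraries ran from 361 to 441 with a median of 375 CPM (-2.08, SE 0.111, adjusted p = 1.04e-13). The 3 genes were far apart between groups. *Insig2* had 27.8, 28.7, 33.0, 28.7 and 23.8 CPM in Ndrg1 libraries, and control libraries ran from 31.8 to 36.4 with a median of 33.7 CPM; it fell by 0.26 (SE 0.072, adjusted p = 0.00275) with overlapping groups. *Ggps1* was the member not called, with 29.5, 37.5, 43.7, 28.1 and 30.2 CPM in Ndrg1 libraries and a control range of 25.2 to 35.8 around a median of 30.9 CPM (0.11, SE 0.108, adjusted p = 0.394).

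All 8 other genes of SREBP cleavage and INSIG turnover fell in Ndrg1 libraries, with a median of -0.66, among them the ligase *Rnf139* (-0.70) and the protease *Mbtps1* (-0.93). All 11 fatty acid genes fell, with a median of -1.92, and *Elovl6*, an elongase, reached -2.28. In the export and LXR list 6 of 11 rose, including *Abca1* (2.92), *Soat1* (1.20) and *Mylip* (0.63), and 3 fell. In the isoprenoid branch 2 of 10 rose, *Rabggtb* (0.80) and *Pdss1* (0.66), and 3 fell, with *Fntb* at -1.79, which is no more than the shares over all genes of 30.8% higher and 29.7% lower. Myelin genes fell in 15 of 15 cases and macrophage markers rose in 11 of 12. The summed Schwann cell markers were 15982 to 20158 CPM in Ndrg1 and 67149 to 90371 CPM in control libraries, and the macrophage sums were 3863 to 4934 CPM in Ndrg1 and 549 to 729 CPM in control libraries. The part of cell composition in the result was not tested.

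Mitf-Ndrg1 libraries gave the same kind of difference from Mitf libraries. edgeR called 23 of 25 members lower and 0 higher, where 27.9% of genes were lower and 29.7% higher (57.6% called in either direction). The median was -1.90 against 0.012 over all genes. *Fdft1* had 82.9, 81.6, 114, 97.2 and 108 CPM in Mitf-Ndrg1 libraries, and Mitf libraries ran from 334 to 433 with a median of 385 CPM (log2 change -1.99, SE 0.0943, adjusted p = 1.19e-14). *Insig1* had 69.2, 76.2, 85.6, 96.7 and 93.8 CPM in Mitf-Ndrg1 libraries, and Mitf libraries ran from 295 to 422 with a median of 386 CPM (-2.18, SE 0.111, adjusted p = 5.02e-14). *Hmgcs1* had 728, 738, 831, 749.7 and 1032 CPM in Mitf-Ndrg1 libraries, and Mitf libraries ran from 2955 to 3783 with a median of 3625 CPM (-2.11, SE 0.121, adjusted p = 4.08e-13). None of these overlapped between groups, as held for 23 members and 19.9% of all genes in that direction. *Acat2*, *Msmo1* and *Pmvk* fell by 1.90, 1.69 and 1.37. *Srebf2* fell by 1.79 (SE 0.146, adjusted p = 2.5e-10) and *Scap* by 1.07 (SE 0.126, adjusted p = 1.19e-07). *Insig2*, at 0.06 (SE 0.0714, adjusted p = 0.502), and *Ggps1*, at 0.11, were the members not called. Fatty acid genes fell in 10 of 11 cases and macrophage markers rose in 11 of 12.

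Whether the Mitf label altered the Ndrg1 difference was tested directly. Against Ndrg1, Mitf-Ndrg1 libraries gave 0 of 25 called members in edgeR, with 7 at an unadjusted p under 0.05 and 4 called by DESeq2, where 1.07% of genes were higher and 0.402% lower (1.47% in either direction). *Insig2* had 33.6, 36.8, 31.7, 36.0 and 31.4 CPM in Mitf-Ndrg1 and 27.8, 28.7, 33.0, 28.7 and 23.8 CPM in Ndrg1 libraries (log2 change 0.26, SE 0.0749, adjusted p = 0.0776). *Cyp51* had 129.7, 119, 165, 128 and 167 CPM in Mitf-Ndrg1 and 203, 169, 226, 170.1 and 158 CPM in Ndrg1 libraries (-0.39, SE 0.116, adjusted p = 0.0866). Both genes overlapped between groups. The interaction gave 0 called members, with 1 at an unadjusted p under 0.05 and 0 by DESeq2, where 0.39% of genes were called, and its smallest p was that of *Insig2* (0.32, SE 0.101, adjusted p = 0.135). Without Ndrg1 replicate 3, 1 member was called in the interaction. The comparisons of this table share libraries.

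**Figure D4:**
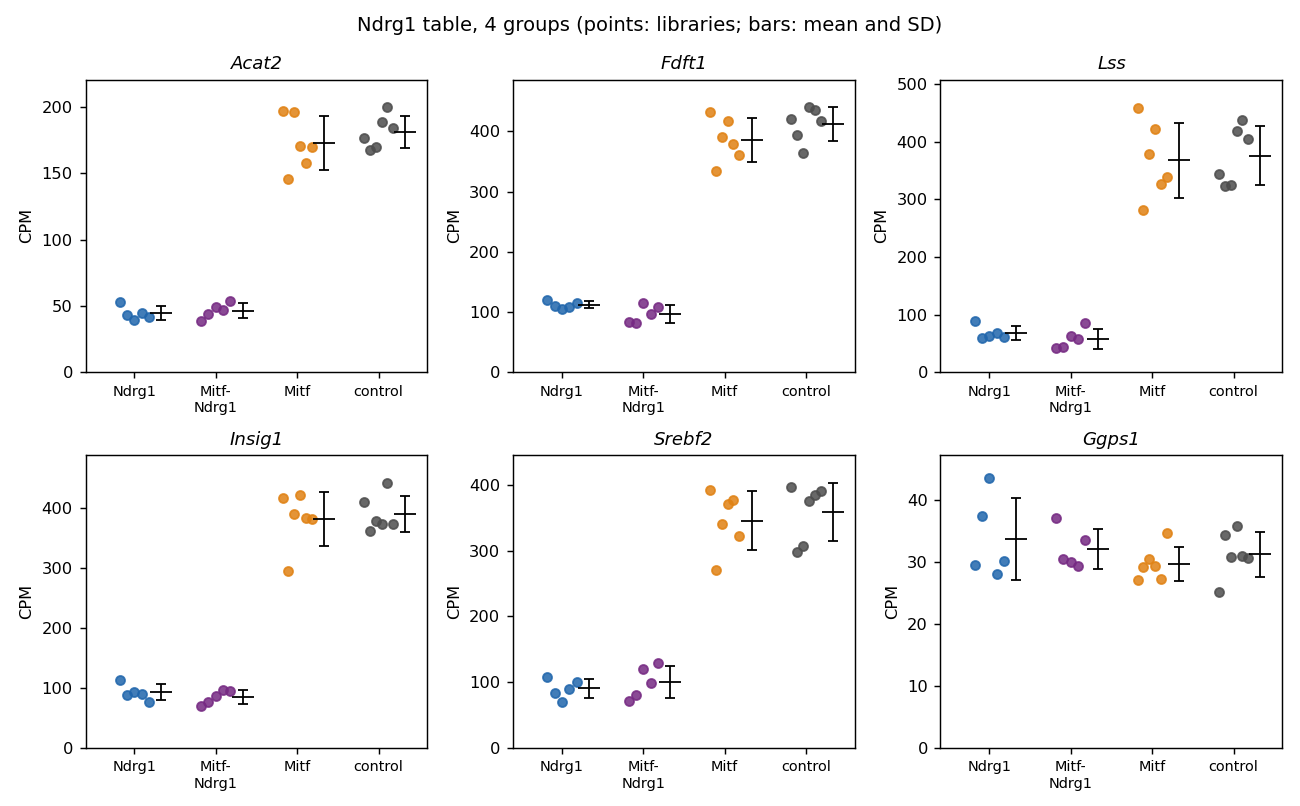
CPM of 6 members in each library of the 4 groups of the Ndrg1 table (points; bars give the mean and SD, n = 5, 5, 6 and 6 from left to right). The Ndrg1 and Mitf-Ndrg1 points lie below all Mitf and control points for *Acat2*, *Fdft1*, *Lss*, *Insig1* and *Srebf2*, and the 4 groups overlap for *Ggps1*.

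Groups compared by a Mitf or Cre label, with no Ndrg1 label, showed no called member in 4 comparisons by edgeR. Mitf against control, in the Ndrg1 table, gave 0 of 25 (0 at an unadjusted p under 0.05, 0 by DESeq2), where 0.00629% of genes were called. *Idi1* ran from 762.2 to 941 with a median of 879.7 CPM in Mitf libraries and from 791 to 1070.1 with a median of 984 CPM in control libraries (log2 change -0.16, SE 0.0981, adjusted p = 0.905). The members summed to 9997 ± 950 CPM in Mitf and 10575 ± 687 CPM in control libraries (SD, n = 6 each). The groups overlapped.

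Mitf against DhhCre at P21 gave 0 of 26 (0 at an unadjusted p under 0.05, 0 by DESeq2), where 0.0143% of genes were called, and the median was 0.07. *Ebp* had 44.8, 46.8, 46.3, 39.7 and 51.2 CPM in Mitf and 41.9, 46.6, 42.8, 38.5 and 38.6 CPM in DhhCre libraries (log2 change 0.14, SE 0.077). *Mvk* had 80.1, 87.8, 81.3, 63.0 and 77.0 CPM in Mitf and 85.0, 77.1, 66.7, 58.3 and 65.7 CPM in DhhCre libraries (0.14, SE 0.107). Both overlapped.

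Mitf against Egr2Cre at P12 gave 0 of 26 (0 at an unadjusted p under 0.05, 0 by DESeq2), where 0.0139% of genes were called, and the median was -0.08. *Tm7sf2* had 108, 107 and 102 CPM in Mitf and 119, 124 and 115 CPM in Egr2Cre libraries (log2 change -0.18, SE 0.0905). *Aacs* had 296, 351 and 294 CPM in Mitf and 402, 337 and 377 CPM in Egr2Cre libraries (-0.25, SE 0.13). The groups were apart for *Tm7sf2* and 3 other members, all lower in Mitf, which held for 3.46% of all genes in that direction.

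Egr2Cre Mitf against Mitf gave 0 of 25 (2 at an unadjusted p under 0.05, 0 by DESeq2), where 0 genes were called, and the median was 0.03. *Dhcr7* had 23.1, 25.1 and 22.2 CPM in Egr2Cre Mitf and 20.2, 17.1 and 19.0 CPM in Mitf libraries (log2 change 0.32, SE 0.116, adjusted p = 0.846). *Nsdhl* had 24.8, 22.4 and 20.6 CPM in Egr2Cre Mitf and 19.3, 18.9 and 17.8 CPM in Mitf libraries (0.28, SE 0.116, adjusted p = 0.846). These genes did not overlap between groups, as held for 3 members and 5.22% of all genes in that direction. The skeletal muscle marker sums of these 6 libraries were 18268 to 79664 CPM.

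The time course holds no uninjured group. Its members summed to between 602 and 825 CPM in a library, except 980 CPM in Mutant 7 days post injury replicate 1. The time comparisons share libraries and were made within each genotype. In Mutant libraries, from day 3 to day 7, edgeR called 4 of 25 members lower and 2 higher, where 17.2% of genes were lower and 16.2% higher (33.4% in either direction). From day 7 to day 14, 5 were lower and 0 higher, where 9.16% were lower and 8.55% higher (17.7% in either direction). In wild type libraries, from day 3 to day 7, 6 were lower and 2 higher, where 19.6% were lower and 19.4% higher (39.1% in either direction). From day 7 to day 14, 0 were called (4 at an unadjusted p under 0.05, 1 by DESeq2), where 4.90% were lower and 2.52% higher (7.41% in either direction). From day 3 to day 7, 0 members were called in Mutant with the muscle covariate, and 14 in wild type (4 higher, 10 lower) with those groups fitted alone.

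*Msmo1* had 76.4, 80.3 and 84.5 CPM at 3 days, 64.4, 31.0 and 22.4 CPM at 7 days and 44.1, 43.5 and 27.7 CPM at 14 days in Mutant libraries. In wild type libraries it had 88.6, 81.8 and 89.0 CPM at 3 days, 33.0, 30.8 and 31.7 CPM at 7 days and 53.9, 44.8 and 51.2 CPM at 14 days. Its level at 7 days was below that at 3 days in every library, with a log2 change of -1.03 in Mutant (SE 0.275, adjusted p = 0.00936) and -1.44 in wild type (SE 0.278, adjusted p = 0.000919). *Sqle*, the epoxidase, had 32.0, 40.6 and 37.7 CPM at 3 days, 31.1, 17.0 and 15.4 CPM at 7 days and 14.6, 12.03 and 24.8 CPM at 14 days in Mutant libraries. In wild type libraries it had 35.3, 32.9 and 35.5 CPM at 3 days, 11.6, 20.5 and 14.8 CPM at 7 days and 14.5, 11.7 and 12.5 CPM at 14 days. It fell from day 3 to day 7 by 0.80 in Mutant (SE 0.28, adjusted p = 0.0392) and by 1.14 in wild type (SE 0.284, adjusted p = 0.00522). *Mvk*, mevalonate kinase, had 25.2, 26.9 and 29.4 CPM at 3 days, 22.6, 17.2 and 17.5 CPM at 7 days and 16.0, 13.7 and 14.2 CPM at 14 days in Mutant libraries. It was called lower in Mutant at both steps, by -0.51 (SE 0.118, adjusted p = 0.00411) and -0.38 (SE 0.119, adjusted p = 0.0379), and in wild type at the first step alone, by -0.56 (SE 0.118, adjusted p = 0.00175). *Ebp* was called lower from day 3 to day 7 in both, at -0.32 in Mutant and -0.40 in wild type, and *Pmvk* at -0.67 in wild type.

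From day 3 to day 7 the shares of members called lower were near those over all genes in both genotypes. *Ggps1* was called higher at this step. It had 20.5, 20.99 and 19.97 CPM at 3 days, 27.1, 31.2 and 26.2 CPM at 7 days and 27.3, 31.7 and 27.4 CPM at 14 days in Mutant libraries. In wild type libraries it had 20.7, 19.8 and 21.8 CPM at 3 days, 37.9, 28.8 and 29.2 CPM at 7 days and 41.9, 40.9 and 38.2 CPM at 14 days. From day 3 to day 7 it rose by 0.46 in Mutant (SE 0.117, adjusted p = 0.00701) and by 0.62 in wild type (SE 0.117, adjusted p = 0.000772). *Stard4* also rose, by 0.52 in each genotype, with overlapping groups in Mutant. In Mutant libraries *Nsdhl* had 22.2, 26.5 and 28.4 CPM at 3 days, 32.9, 25.7 and 20.9 CPM at 7 days and 13.0, 11.6 and 17.4 CPM at 14 days, and fell from day 7 to day 14 by 0.92 (SE 0.218, adjusted p = 0.011). *Acat2*, *Aacs* and *Insig1* fell at that step by 0.70, 0.85 and 0.70. With the muscle covariate, or with those groups fitted alone, 0 members were called at that step, and the muscle marker sums of Mutant libraries were 1322 to 3020 CPM at 7 days and 6407 to 158000 CPM at 14 days. These day 14 calls numbered 1 without Mutant 14 days post injury replicate 2, 2 without Mutant 7 days post injury replicate 3 and 3 without Mutant 7 days post injury replicate 1. Without that last library, 8 members were called in Mutant from day 3 to day 7, in place of 6.

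Mutant against wild type at the same time gave few differences. At 3 days 0 of 25 members were called by edgeR (1 at an unadjusted p under 0.05, 0 by DESeq2) and at 7 days 0 (2 at an unadjusted p under 0.05, 0 by DESeq2), where 0 of all genes were called at either time. *Nsdhl* had 22.2, 26.5 and 28.4 CPM in Mutant and 16.5, 18.1 and 19.5 CPM in wild type libraries at 3 days (log2 change 0.51, SE 0.215), and it overlapped between genotypes at 7 days (0.53, SE 0.216, adjusted p = 0.333). The median of the members at 7 days was 0.21 with all libraries and -0.07 without Mutant replicate 1. At 14 days 2 members were lower and 0 higher, where 1.24% of genes were lower and 7.05% higher (8.29% in either direction). *Ggps1* had 27.3, 31.7 and 27.4 CPM in Mutant and 41.9, 40.9 and 38.2 CPM in wild type libraries (-0.49, SE 0.117, adjusted p = 0.0219). *Ebp* had 35.1, 31.4 and 28.8 CPM in Mutant and 45.1, 38.4 and 43.9 CPM in wild type libraries (-0.42, SE 0.103, adjusted p = 0.0239). Neither overlapped, but 0 members were called with those groups fitted alone, with no low-count filter, without Mutant replicate 3 or without wild type replicate 3, and 5 without Mutant replicate 2. The interactions of genotype with time called 0 members from day 3 to day 7 (0 at an unadjusted p under 0.05, 0 by DESeq2) and 0 from day 7 to day 14 (5 at an unadjusted p under 0.05, 0 by DESeq2), where 0 and 0.0946% of genes were called.

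The enzymes can be ordered by step across the 4 comparisons that called most members. These are Fig4 -/- at P12, 3 days post injury, Ndrg1 and Mitf-Ndrg1, and they share no library. Because they stand out by their calls, recurrence of a call among them is in part fixed by the choice. *Lss* had the lowest log2 change of the members in all 4, between -2.67 and -1.27. 12 members were called lower in all 4, namely *Acat2*, *Hmgcs1*, *Idi1*, *Fdps*, *Fdft1*, *Sqle*, *Lss*, *Cyp51*, *Msmo1*, *Sc5d*, *Insig1* and *Stard4*. 8 were called in 3, among them *Srebf2* and *Scap*, and *Mvk*, *Tm7sf2* and *Ebp* in 2. *Insig2* was called in 1 and *Ggps1* in 0. The rank correlation of the members' changes across 25 genes was 0.755 between Fig4 -/- at P12 and injury, 0.409 between Fig4 -/- at P12 and Ndrg1 and 0.671 between injury and Ndrg1. It was 0.601 between Fig4 -/- at P12 and Mitf-Ndrg1 and 0.836 between injury and Mitf-Ndrg1. Between Ndrg1 and Mitf-Ndrg1, whose libraries come from 1 table and 1 fit, it was 0.857. Genes are not independent replicates, and these correlations are descriptions of the 25 genes.

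**Figure D5:**
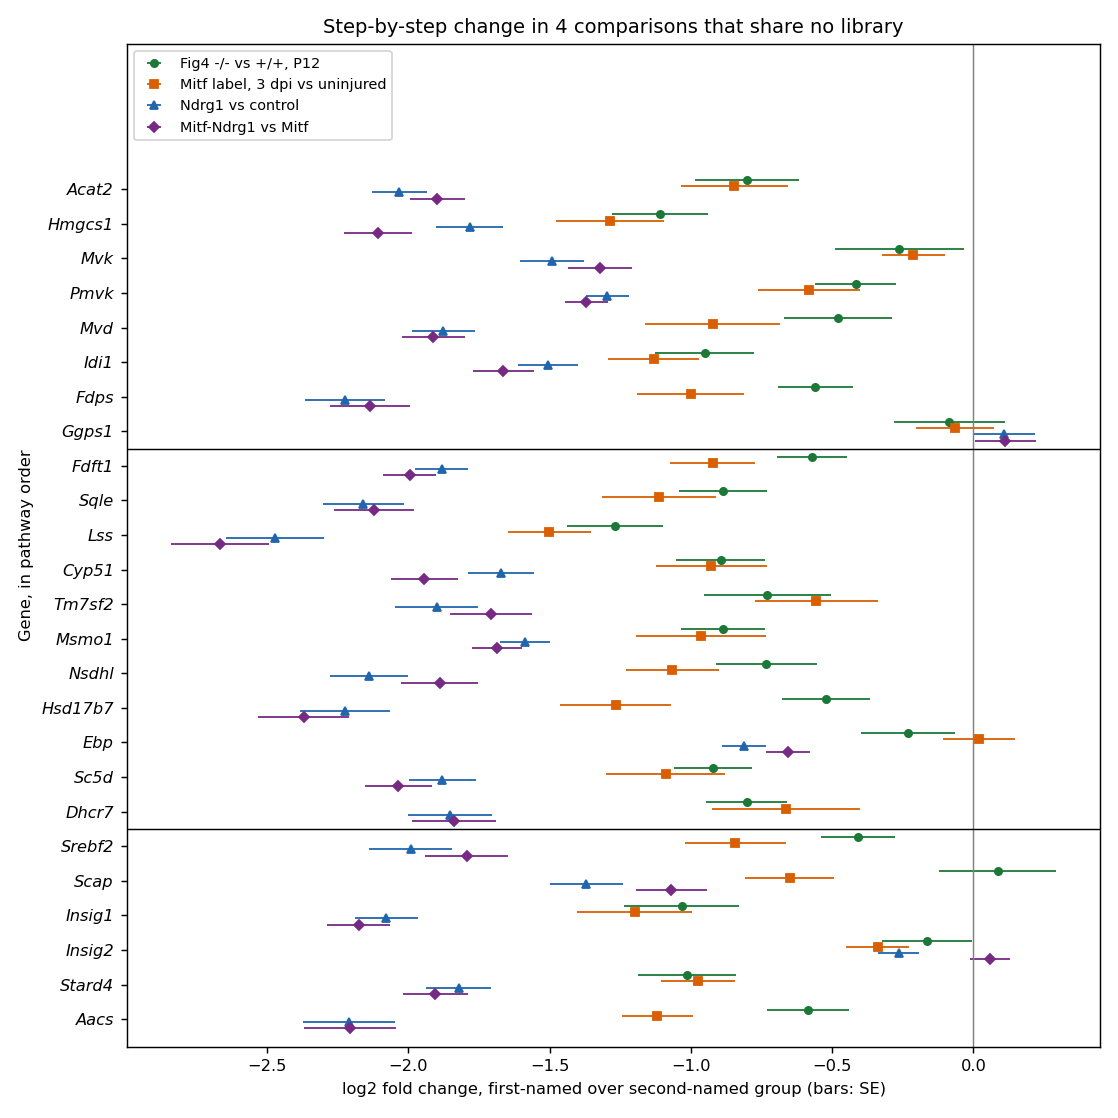
Log2 fold change (x axis; bars give the SE) of each member, in pathway order down the page, in the 4 comparisons that called most members, which share no library. The Ndrg1 and Mitf-Ndrg1 points lie left of the other comparisons for most genes, and all 4 points of *Ggps1* lie near 0.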

How the data were processed

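Poly(A) RNA of mouse sciatic nerve was sequenced from stranded libraries, per the labels' protocols. The authors deposited estimated counts per gene in 8 tables, made with kallisto on mm10, per the submitters' processing notes. For its version, the transcript annotation and the step to genes, the sources used here give nothing. Values equal to a whole number with no tolerance, zeros included, made up 34.8% to 89.0% of a table. All estimated counts were rounded to whole numbers. Columns not used numbered 0. The tables were fitted one by one, except the age interaction, which used the 26414 symbols shared by both Fig4 tables.

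Genes passed filterByExpr (minimum count 10) and were TMM-scaled, and the test was edgeR's robust two-sided quasi-likelihood test (version 4.0.16, R 4.3.3). P-values were adjusted by Benjamini-Hochberg over all genes of a comparison, with a threshold of 0.05. There were 21 comparisons, 17 between groups and 4 interactions. CPM came from the authors' estimated counts divided by TMM-scaled library sizes. The SE is that of the log2 change. The test was tried on simulated data before use. Alternatives were DESeq2 1.42.0, RLE scaling, no low-count filter, a replicate block, the compared groups alone, a skeletal muscle covariate (log2 CPM with a pseudocount of 2) and leaving out each library. The P4 fit without both libraries that stand apart was chosen after seeing the data.

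The members and the other lists were chosen with earlier results of these data known. Named were up to 6 called members with the smallest p per comparison, or up to 2 where none was called, *Srebf2*, *Scap*, *Insig1* and *Insig2* where most members were called, and up to 3 genes of another list by smallest p. A gene that this rule names is not reported here. Other members are given by their change, and those named outside the rule were chosen after their values were seen. Replicates of a group differed beyond sampling noise, with a chi-square of at least 9.61 per degree of freedom. Every correlation between libraries of the same replicate number was over 0.1 in the P21 and the Egr2Cre Mitf tables alone. At P21 these ran from 0.119 to 0.299, and those between different numbers reached 0.250. The labels do not say whether the numbers pair samples.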

Additional observations from a re-analysis of the deposited data

Results flagged for a closer look

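Of 202 combinations of a member and a group of 4 to 10 libraries, 7 had a library far from the others of its group by Dixon's test at the 95% level. Chance flags about 1 in 20 groups. In Mitf libraries at P21, *Fdps* was low in replicate 4, at 368.3 CPM with the nearest other library at 494.7 CPM, and *Insig2* was low in replicate 3, at 25.19 CPM with the nearest at 31.06 CPM. Of the libraries labelled Mitf 3 days post injury, replicate 2 was low for *Nsdhl*, at 32.52 CPM with the nearest at 51.11 CPM, and replicate 3 was high for *Aacs*, at 78.13 CPM with the nearest at 65.9 CPM. In control libraries of the Ndrg1 table, replicate 1 was high for *Ebp*, at 45.49 CPM with the nearest at 39.13 CPM. In Mitf libraries of that table, replicate 2 was low for *Insig1*, at 295.1 CPM with the nearest at 380.9 CPM, and for *Stard4*, at 105.5 CPM with the nearest at 143.8 CPM.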

How the results depend on the processing

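The counts of called members after injury, in Ndrg1 and in Mitf-Ndrg1 stayed within 1.5 times under all alternatives run (the lowest was 13 after injury, with the muscle covariate), and leaving out each library gave 16 to 19, 24 and 23. For Fig4 -/- at P12 the muscle covariate gave 1 in place of 13, and leaving out each library gave 4 to 15. The muscle sums there did not overlap between genotypes, so the covariate cannot be fully told from genotype. A replicate block gave 13 there, of which 10 were shared, 20 after injury and 6 in Mutant from day 3 to day 7. In the P21 and the Egr2Cre Mitf tables, 0 members were called with or without the replicate block. In Mutant from day 3 to day 7 no filter gave 3 and the covariate 0, with 3 to 8 on leaving out libraries. In Mutant from day 7 to day 14 no filter gave 3, the covariate 0 and the groups alone 0, with 1 to 5. At both Mutant steps the muscle sums of the compared times did not overlap either. In wild type from day 3 to day 7 the groups alone gave 14, with 6 to 9, and from day 7 to day 14 DESeq2 gave 1 and the groups alone 1, with 0 to 1. Mutant against wild type at 14 days gave 0 with no filter and 0 with the groups alone, with 0 to 5. Mitf-Ndrg1 against Ndrg1 gave 4 with DESeq2, with 0 to 1, as did the Mitf by Ndrg1 interaction on leaving out libraries. The age interaction gave 3 with DESeq2 and 1 with the covariate. The causes were not tested. The 100 calls of a member in a comparison were each followed through the alternatives. Of these repeats 1303 kept the call and 138 lost it, 84 of them on leaving out a library, and 0 changed direction.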
